A study of Mus musculus with 6 samples.

Results

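Intermediate filaments are the rope-like part of the cytoskeleton, and each cell type builds them from its own set of proteins. Neural stem cells carry vimentin and nestin, astrocytes add glial fibrillary acidic protein (GFAP), and neurons replace these with alpha-internexin and the neurofilament proteins. The lamins belong to the same protein family but line the inside of the nuclear envelope, where they carry the shape of the nucleus and anchor chromatin. B-type lamins are kept at the membrane by a permanent lipid tail, whereas mature lamin A loses its tail, and A-type lamins rise as many tissues mature or stiffen.

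The genes described are 10 intermediate filament and lamin genes, taken by symbol from a deposited table of 54884 entries. Each of the 10 had 1 entry. The filament genes of stem and glial cells are Vim, Nes, Synm and Gfap, those of neurons are Ina, Nefl and Nefm, and the lamin genes are Lmna, Lmnb1 and Lmnb2. Poly(A) RNA was sequenced from neural stem cells of C57BL/6J mice, grown from the hippocampus of embryos at day 14 and used between passages 3 and 8. Of 6 libraries, 3 came from cells given a lentivirus with an siRNA against circHIPK2, a circular RNA of the Hipk2 gene, and 3 from cells given a control siRNA lentivirus, called circCon, so that both groups carried a virus. The labels do not say whether replicates are different cultures; p-values then reflect the variation among the 6 libraries alone, possibly technical.

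Values are FPKM, fragments scaled by transcript length and by library size, so levels can be compared between genes. The libraries held 18370000 to 21900000 fragments, as estimated from the steps between low values; in 3 libraries a depth near double gave a stronger match. That depth would add values midway between steps, which evenly spread values would give in 10%. They made up 11.9% in control library 1, 12.6% in siRNA library 1 and 13.4% in siRNA library 3, the libraries with the stronger match. In the others they made up 10.0% to 11.2%. The lower depth was used for all 6, and these shares do not settle it for those 3. The mRNA of Hipk2 had 23.8 to 28.8 FPKM with the siRNA against 30.9 to 36.9 FPKM in the controls and was not called (adjusted p = 0.257 by limma); this entry does not measure the circle. A set of 9 transcripts, from the ribosomal RNA locus or high where those are high, took 11.5%, 3.24% and 19.9% of all FPKM in circHIPK2 siRNA libraries 1 to 3, against 0.58%, 0.426% and 0.321% in control libraries 1 to 3. Over the 13702 entries averaging 1 FPKM or more across the libraries the median difference was −0.12 on the log2(FPKM + 1) scale, and 77.1% of them lay below 0. Of those entries 16 rose (0.117%) and 19 fell (0.139%) at an adjusted p below 0.05. With median-of-ratios scaling 3 rose and 11 fell, and with quantile normalization 4 rose and 12 fell.

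The labelled cell type was checked against marker genes. Sox2, a transcription factor of neural stem cells, had 91.4 to 118 FPKM with the siRNA and 82.2 to 116 FPKM in the controls. Of 14 tested markers of neural stem and radial glial cells 0 were called in either direction (limma; 2 lower and 0 higher at an unadjusted p below 0.05), and 4 lay entirely lower in the siRNA libraries and 1, Tead2, entirely higher, where 22.1% of all tested entries lay entirely lower and 2.65% entirely higher. The Notch target Hes5 was at 10.1 ± 1.05 FPKM with the siRNA and 17.2 ± 1.89 FPKM in the controls (SD, n = 3 each; adjusted p = 0.0667, limma), and Fabp7, a fatty acid binding protein gene, was at 755 ± 148 FPKM with the siRNA and 1206 ± 307 FPKM in the controls. Genes of astrocytes and of the oligodendrocyte lineage were abundant as well: Aldoc had 140 to 264 FPKM with the siRNA and 151 to 243 FPKM in the controls, and Olig1 had 339 to 444 FPKM with the siRNA and 433 to 481 FPKM in the controls. Rbfox3, a marker of mature neurons, had at most 0.289 FPKM in all 6 libraries, and Neurod6 was listed at 0 in 5 of them, but other neuronal markers were abundant: Map2, a microtubule protein gene, had 84.8 to 93.7 FPKM with the siRNA and 106 to 115 FPKM in the controls, and Stmn3 had 20.3 to 24.5 FPKM with the siRNA and 27.7 to 31.9 FPKM in the controls. The 12 markers of fibroblasts, mural and endothelial cells summed to 1.13 to 1.69 FPKM with the siRNA and 1.15 to 1.31 FPKM in the controls. In bulk samples, fewer cells of a type and less RNA per cell cannot be told apart.

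None of the 8 filament and lamin genes that passed the filter was called in either direction (limma, Benjamini-Hochberg adjusted), against 0.255% of all entries called. At an unadjusted p below 0.05 there were 2, Lmnb1 and Lmnb2, both lower with the siRNA, against 15.5% of all entries lower and 1.83% higher. Synm and Nefl lay below the filter. On the FPKM as deposited, Lmnb1, Lmnb2 and Nefl lay entirely lower in the circHIPK2 siRNA libraries and 0 of the 10 lay entirely higher. The first 2 of these passed the filter, and among all tested entries 22.1% lay entirely lower and 2.65% entirely higher. A share of 2 in 8 is thus near the background. Not every gene of a class lay apart: among the lamins Lmna overlapped between the groups, and among the neuronal filament genes Ina and Nefm did.

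**Figure D1:**
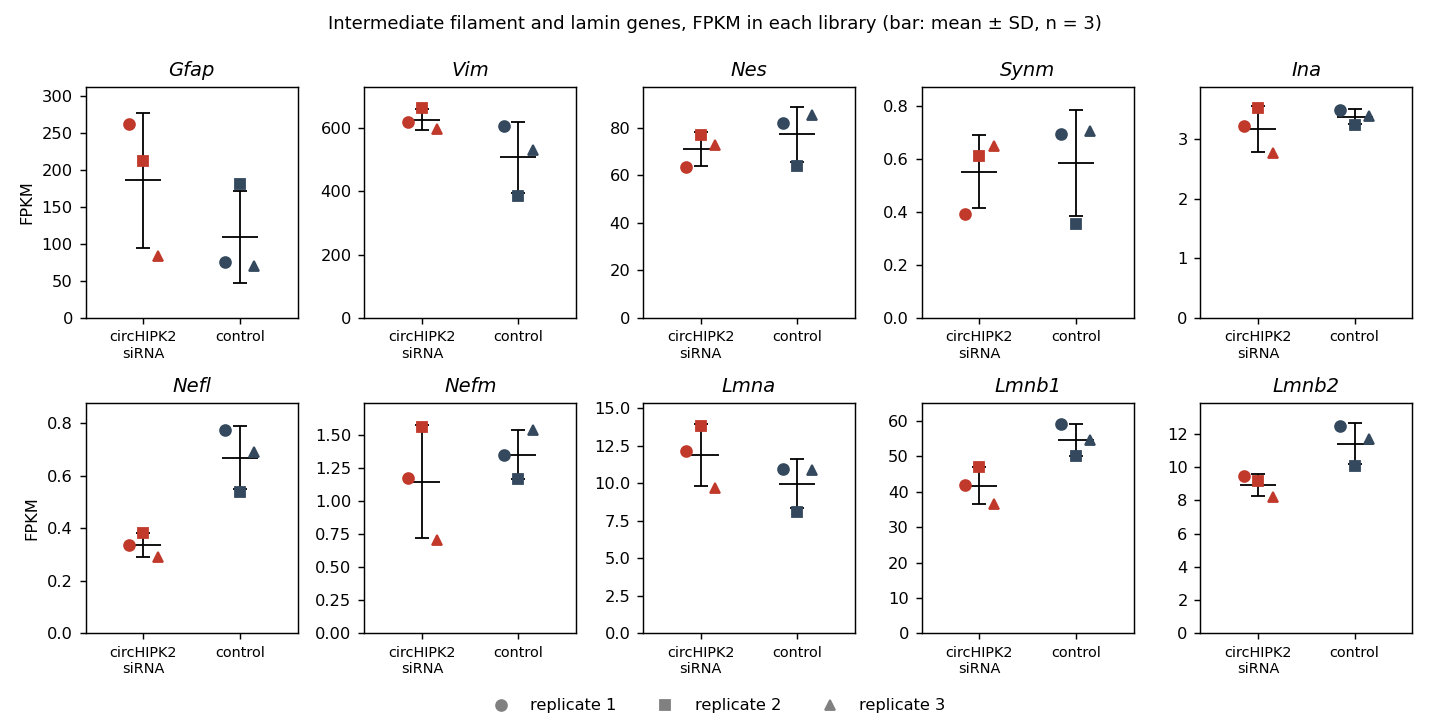
FPKM of the 10 genes (vertical axes, each starting at 0) in the 3 circHIPK2 siRNA libraries (red, left) and the 3 control libraries (dark, right), with symbols for replicate 1 to 3 and the mean ± SD. The groups are apart for Nefl, Lmnb1 and Lmnb2 and overlap for the other genes, and for Gfap the libraries of each group span more than the difference between the means.

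Both B-type lamin genes were lower in every siRNA library than in any control, and Lmna was not. Lmnb1, which encodes lamin B1 and is abundant in proliferating cells, had 41.9, 46.9 and 36.5 FPKM in circHIPK2 siRNA libraries 1 to 3, against 59.2, 50.1 and 54.6 FPKM in control libraries 1 to 3. Every siRNA library was below every control, and the closest pair was siRNA library 2 and control library 2. The mean was 41.7 ± 5.20 FPKM with the siRNA and 54.6 ± 4.56 FPKM in the controls (SD, n = 3 each), a ratio of 0.764. The log2 difference of −0.38 (SE 0.12, 95% confidence interval −0.66 to −0.11) was not called (adjusted p = 0.199 by limma), and the gene ranked 768 of 13702 entries by p.

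Lmnb2, the second B-type lamin gene, had 9.44, 9.17 and 8.21 FPKM in circHIPK2 siRNA libraries 1 to 3, against 12.5, 10.1 and 11.7 FPKM in control libraries 1 to 3. Here too the groups did not overlap, and siRNA library 3 and control library 2 were the lowest of their groups. The means were 8.94 ± 0.649 FPKM with the siRNA and 11.4 ± 1.23 FPKM in the controls (SD, n = 3 each). The log2 difference was −0.32 (SE 0.11; adjusted p = 0.221 by limma). Both differences lay below the median of all entries. With median-of-ratios scaling Lmnb1 lay entirely lower and Lmnb2 did not, against 10.1% of all entries; with quantile normalization both did, against 9.58%.

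Lmna, which encodes lamins A and C by alternative splicing, had 12.2, 13.8 and 9.66 FPKM in circHIPK2 siRNA libraries 1 to 3, against 10.96, 8.09 and 10.9 FPKM in control libraries 1 to 3. The groups overlapped, because siRNA library 3 was below control libraries 1 and 3. The log2 difference was 0.23 (SE 0.16; adjusted p = 0.448 by limma), and its interval of −0.13 to 0.58 holds 0. It was 0.10 without control library 2, 0.12 without siRNA library 2 and 0.36 without siRNA library 3. With median-of-ratios scaling Lmna lay entirely higher, as did 10.1% of all entries. A gene value cannot separate lamin A from lamin C.

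**Figure D2:**
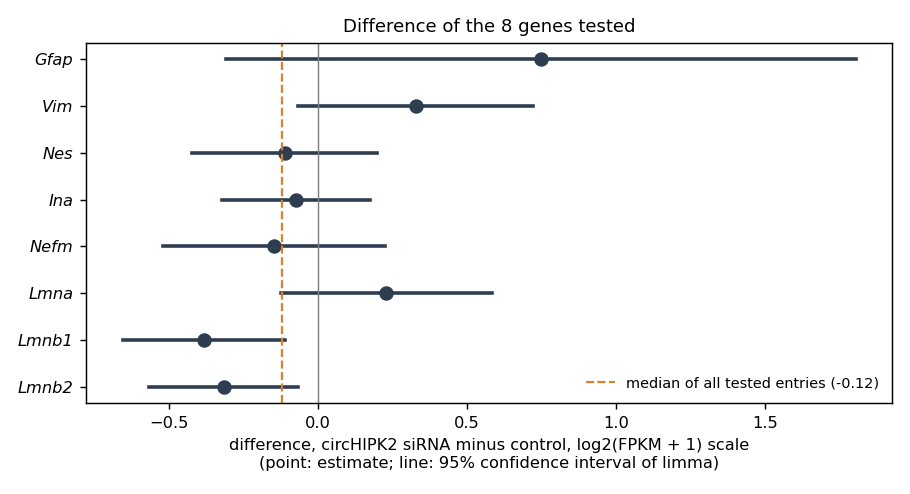
Difference between circHIPK2 siRNA and control on the log2(FPKM + 1) scale (horizontal axis) for the 8 genes tested, with the 95% confidence interval from limma. The intervals of Lmnb1 and Lmnb2 lie below 0 before adjustment and reach the dashed line at −0.12, the median of all tested entries; the other 6 intervals hold 0.

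Within a library the scaling cancels, and the balance of the lamins can be read directly. The ratio of Lmna to Lmnb1 was 0.291, 0.294 and 0.265 in circHIPK2 siRNA libraries 1 to 3, against 0.185, 0.162 and 0.199 in control libraries 1 to 3. Its mean was 0.283 ± 0.0161 with the siRNA and 0.182 ± 0.0189 in the controls (SD, n = 3 each), 1.56-fold higher with the siRNA (two-sided exact permutation p = 0.1, and 3 against 3 allows none smaller; 0.18 after Benjamini-Hochberg adjustment over 9 ratios). The order of Lmna and Lmnb2 also turned: Lmna was above Lmnb2 in all 3 siRNA libraries, with ratios of 1.289, 1.505 and 1.177, and below it in all 3 controls, with 0.877, 0.804 and 0.931 (exact permutation p = 0.1). The ratio within the B-type pair overlapped between the groups, at 0.215 ± 0.0171 Lmnb2 per Lmnb1 with the siRNA and 0.209 ± 0.00677 in the controls (exact permutation p = 0.6). These ratios have a high background, since 41.9% of all tested entries lay entirely higher relative to Lmnb1, and 27.8% relative to Lmnb2. With each library left out in turn, the log2 difference of the Lmna to Lmnb1 ratio stayed between 0.56 and 0.71.

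**Figure D3:**
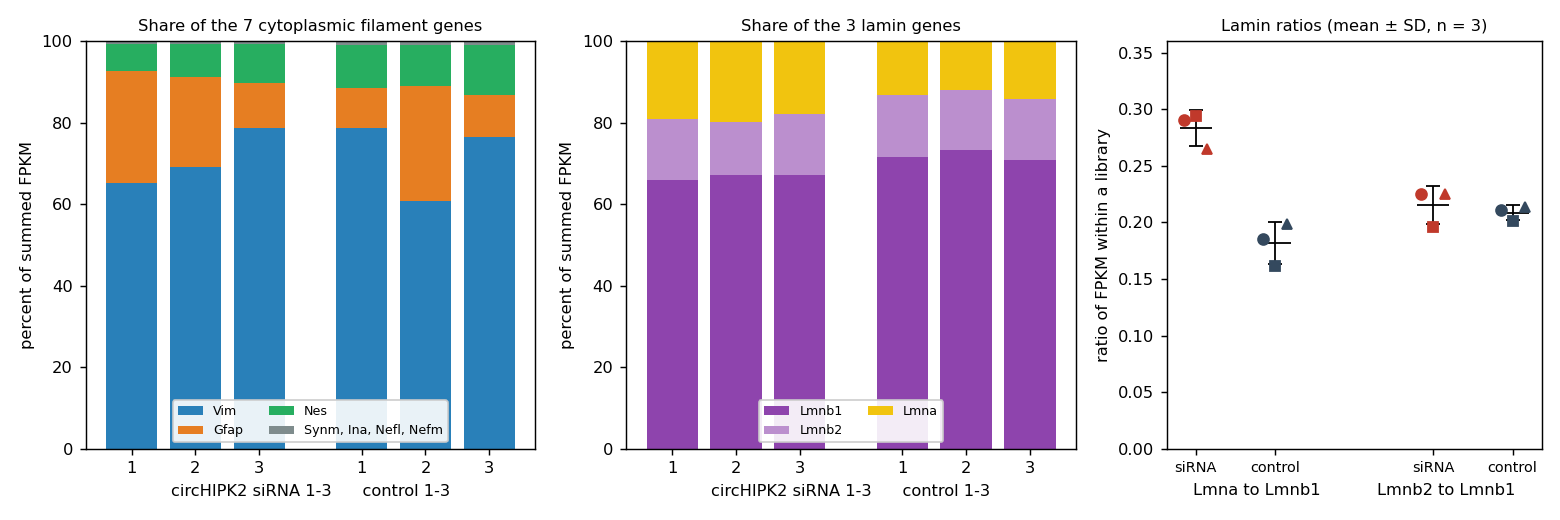
Left and middle, share of the summed FPKM of the 7 cytoplasmic filament genes and of the 3 lamin genes (percent, vertical axes) in circHIPK2 siRNA libraries 1 to 3 and control libraries 1 to 3; right, ratios of lamin genes within each library with the mean ± SD. Lmna holds 17.8% to 19.8% of the lamin FPKM with the siRNA and 11.9% to 14.1% in the controls, and the share of Gfap differs more between libraries of a group than between the groups.

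Genes that cells use in mitosis were lower in the same libraries as the B-type lamins. Of 24 mitosis genes all lay below 0, against 77.1% of all entries. On the deposited FPKM 20 lay entirely lower, against 22.1% of all entries. In either direction 0 were called, and 18 were lower at an unadjusted p below 0.05 (limma), against 15.5% of all entries. Their median was −0.37, close to the −0.38 of Lmnb1, where the median of all entries was −0.12. Kif2c, a kinesin that corrects chromosome attachment, had 14.1, 14.9 and 14.0 FPKM with the siRNA and 22.5, 20.4 and 23.9 FPKM in the controls (adjusted p = 0.0664 by limma), and Ube2c, which helps to mark mitotic proteins for degradation, had 59.1 ± 7.93 FPKM with the siRNA and 70.6 ± 6.13 FPKM in the controls. The list summed to 589 to 626 FPKM with the siRNA and to 719 to 851 FPKM in the controls. With other scalings 8 to 16 of the 24 lay entirely lower, against 6.76% to 10.1% of all entries. With library weights 12 were called lower, in a fit that called 265 of all 13702 entries lower, against 19 without weights. The part of the mitosis genes in the lamin values was not tested, nor was that of the ribosomal RNA locus entries, whose share was highest in siRNA library 3, where Lmnb1 was lowest.

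Genes of lamina-binding proteins lay near the background of all entries. Of 16 tested genes of the inner nuclear membrane and of the LINC complex, which ties the lamina to the cytoskeleton, 0 were called in either direction (limma; 2 lower and 0 higher at an unadjusted p below 0.05) and 3 lay entirely lower, against 22.1% of all entries. The list median was −0.07, and 0.051 with median-of-ratios scaling. Tor1a, an ATPase of the nuclear envelope lumen, had 12.3 ± 0.522 FPKM with the siRNA and 15.7 ± 1.42 FPKM in the controls (adjusted p = 0.198 by limma). Banf1, which bridges DNA and lamina proteins and was the most abundant of the list, had 117 ± 8.19 FPKM with the siRNA and 130 ± 15.2 FPKM in the controls (SD, n = 3 each; adjusted p = 0.513, limma).

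The enzymes that put on and cut off the lipid tail of lamins were all expressed. Of the 5, which are both farnesyltransferase subunits, Rce1, Icmt and Zmpste24, 0 were called in either direction (limma; 1 lower and 0 higher at an unadjusted p below 0.05), and the median difference was −0.14. Fnta, the alpha subunit of the farnesyltransferase, had 21.97, 23.2 and 22.7 FPKM with the siRNA and 27.7, 29.4 and 27.6 FPKM in the controls (adjusted p = 0.186 by limma). Zmpste24, the protease that matures lamin A, had 13.8 to 17.4 FPKM with the siRNA and 17.6 to 18.1 FPKM in the controls. All 5 lay below 0 as deposited, as did 77.1% of all entries. Above 0 lay 1 with median-of-ratios scaling, 1 with quantile normalization and 3 with columns rescaled without the 9 ribosomal RNA locus entries.

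Among the cytoplasmic filaments Vim was the most abundant gene and Gfap the most variable. Vim, the type III filament gene of progenitors and mesenchymal cells, had 620, 662 and 597 FPKM in circHIPK2 siRNA libraries 1 to 3, against 605, 386 and 530 FPKM in control libraries 1 to 3. The siRNA libraries were close together, and control library 2 stood far below the others, so that only siRNA library 3 fell below a control. The means were 626 ± 33.1 FPKM with the siRNA and 507 ± 111 FPKM in the controls (SD, n = 3 each), with a log2 difference of 0.33 (SE 0.17; adjusted p = 0.354 by limma). Without control library 2 the difference was 0.14 (adjusted p = 0.603, limma).

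Gfap, the type III filament gene of astrocytes and of adult neural stem cells, had 262, 211 and 83.9 FPKM in circHIPK2 siRNA libraries 1 to 3, against 76.0, 181 and 70.5 FPKM in control libraries 1 to 3. Both groups held high and low libraries: siRNA library 3 was near control libraries 1 and 3, and control library 2 was near siRNA library 2. The highest library was 3.12 times the lowest with the siRNA and 2.56 times in the controls. The mean of 186 ± 91.6 FPKM with the siRNA was 1.70 times the 109 ± 62.1 FPKM of the controls (SD, n = 3 each), and the log2 difference of 0.75 (SE 0.46) had an interval from −0.31 to 1.80 (adjusted p = 0.411 by limma). Without control library 2 Gfap lay entirely higher with the siRNA, at a log2 difference of 1.18 (adjusted p = 0.252, limma), against 4.24% of all entries, and without siRNA library 3 the difference was 1.24 (adjusted p = 0.345, limma). Without siRNA library 1 it was 0.43 (adjusted p = 0.695, limma).

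Shown are the promoters of Vim and Gfap, whose libraries overlapped between the groups, and of Lmnb2, a lamin gene whose libraries did not. Lmnb1 and Nefl, which did not overlap either, were not among the 7 of 10 genes with a RefSeq promoter at hand. The sequences run 5′ to 3′ on the gene's strand from 100 bases before to 50 after the RefSeq start (build GRCm38.p6): chr11:102897151-102897300, minus strand, for Gfap, chr2:13574211-13574360, plus strand, for Vim, and chr10:80918196-80918345, minus strand, for Lmnb2.
Gfap: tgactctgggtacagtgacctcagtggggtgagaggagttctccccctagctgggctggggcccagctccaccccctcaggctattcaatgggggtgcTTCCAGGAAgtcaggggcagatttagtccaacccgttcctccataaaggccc
Vim: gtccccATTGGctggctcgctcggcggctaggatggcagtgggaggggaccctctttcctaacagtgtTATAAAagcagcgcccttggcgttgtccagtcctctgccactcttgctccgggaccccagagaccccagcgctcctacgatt
Lmnb2: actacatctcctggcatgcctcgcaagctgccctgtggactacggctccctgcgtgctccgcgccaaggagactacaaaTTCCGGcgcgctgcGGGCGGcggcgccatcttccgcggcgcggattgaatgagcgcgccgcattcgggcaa
Capitals mark motif matches on either strand, counted from 0 at the start. In Gfap they mark TTCNNNGAA, the core of sites bound by STAT factors, at −2; 8.3% of 32851 promoter windows of 300 bases hold this motif. In Vim they mark CCAAT, here on the opposite strand, at −94 (37.4% of windows) and TATAAA at −32 (13.6%). In Lmnb2 they mark TTCCGG, a core of ETS factor sites, at −21 (14.9%) and GGGCGG, the core of Sp1 sites, at −7 (35.7%). Also searched were TTTGAA (17.9%), TTTGGCGC (0.514%), TTTCGCGC (0.323%) and TGANTCA (7.81%), which these stretches do not hold. The motifs were chosen with the data known and are a description of the sequence, not of binding.

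The sum of the astrocyte markers was ordered as Gfap inside each group, and the markers did not differ in a common direction with Gfap between the groups. Single markers did not all keep the order of the sum: among the controls Aldh1l1 was lowest in control library 2, which held the most Gfap. The 12 markers summed to 1483, 1328 and 812 FPKM in circHIPK2 siRNA libraries 1 to 3, against 1224, 1817 and 1125 FPKM in control libraries 1 to 3. The highest library of each group was thus the one with the most Gfap, and the lowest the one with the least. Of the 12 genes 0 were called in either direction (limma; 0 also at an unadjusted p below 0.05). Below 0 lay 10, against 77.1% of all entries, and the median was −0.20, or 0.020 without siRNA library 3. Sparcl1, a secreted matricellular protein gene and the most abundant of them, had 308 ± 94.0 FPKM with the siRNA and 334 ± 127 FPKM in the controls, and Glul, glutamine synthetase, had 130 ± 33.2 FPKM with the siRNA and 180 ± 40.5 FPKM in the controls (SD, n = 3 each). The part of astrocyte content in the Gfap values was not tested.

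Genes known to rise with Gfap in reactive astrocytes lay, for the most part, higher with the siRNA. Of 6 such genes tested, 5 lay entirely higher, against 2.65% of all entries. These 5 had an unadjusted p below 0.05, while 0 passed after adjustment over all entries (limma). Osmr, 1 of the 5, passed the filter only through the siRNA libraries, at 1.39 to 2.26 FPKM against 0.465 to 0.815 FPKM in the controls. Serpina3n, a secreted protease inhibitor, had 54.8, 53.7 and 26.3 FPKM with the siRNA and 16.6, 26.3 and 16.8 FPKM in the controls (log2 difference 1.10, SE 0.29; adjusted p = 0.169 by limma), and siRNA library 3 and control library 2 all but met. S1pr3, a receptor for sphingosine phosphate, had 6.24, 6.98 and 5.54 FPKM with the siRNA and 2.26, 4.04 and 1.95 FPKM in the controls (adjusted p = 0.119, limma). The count was 5 in each of the other scalings, against 9.8% to 12.5% of all entries. It was also 5 with each library left out, against 3.42% to 6.28% of all entries. At a mean of at least 5 FPKM it was 2 of 3 tested. With library weights 5 were called higher, in a fit that called 55 of all 13702 entries higher and 320 in either direction. With the replicate block 2 were called higher, in a fit that called 23 higher and 46 in either direction. Among the 4 below the filter Lcn2, lipocalin 2, had 1.16 to 2.02 FPKM with the siRNA and at most 0.0288 FPKM in the controls, and C3, a complement gene, ran the other way with at most 0.0271 FPKM with the siRNA and 0.369 to 0.693 FPKM in the controls; both were named after their values were seen.

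Genes that act on Gfap transcription gave no common direction on the deposited FPKM. Of 18 genes of cytokine, BMP and NFI signalling to Gfap, 0 were called in either direction (limma; 1 higher and 1 lower at an unadjusted p below 0.05), and 9 lay on each side of 0; with median-of-ratios scaling 14 lay above 0. Socs3, a feedback inhibitor that STAT3 switches on, had 1.73, 1.66 and 2.18 FPKM with the siRNA and 0.926, 1.11 and 1.14 FPKM in the controls (log2 difference 0.47, SE 0.12; adjusted p = 0.168 by limma), and the groups did not overlap. Stat3 itself had 33.2 to 49.2 FPKM with the siRNA and 27.2 to 45.3 FPKM in the controls. Id3, a BMP-induced gene and the most abundant of the list, had 52.8 ± 4.44 FPKM with the siRNA and 55.7 ± 9.26 FPKM in the controls. On the deposited FPKM 2 of the 18 lay entirely higher, Socs3 and Nfia, against 2.65% of all entries. Entirely lower lay 3, Lifr, Smad4 and Dnmt1, against 22.1% of all entries.

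Nes, the large filament protein that marks neural progenitors and assembles with vimentin, had 63.3, 77.0 and 72.6 FPKM in circHIPK2 siRNA libraries 1 to 3, against 82.2, 64.1 and 85.3 FPKM in control libraries 1 to 3. The groups overlapped through control library 2. The means were 71.0 ± 6.99 FPKM with the siRNA and 77.2 ± 11.5 FPKM in the controls (SD, n = 3 each), and the log2 difference was −0.11 (SE 0.14; adjusted p = 0.67 by limma), and turned to 0.025 with median-of-ratios scaling. Relative to Vim it was lower in every siRNA library, with 0.102, 0.116 and 0.122 Nes per Vim with the siRNA and 0.136, 0.166 and 0.161 in the controls (exact permutation p = 0.1). This is a statement on Vim as much as on Nes, since 57.3% of all tested entries lay entirely lower relative to Vim.

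Synm, a large filament protein that assembles with vimentin and GFAP, was low, at 0.395, 0.614 and 0.650 FPKM with the siRNA against 0.697, 0.356 and 0.709 FPKM in the controls. Control library 2 was the lowest of the 6. Its gene overlaps that of Ttc23 on the other strand, at 2.02 FPKM on average, and whether counting used strand is not stated. Control library 2 thus held the least Vim, Synm and Lmna of all libraries. Of the controls it held the least Nes, Lmnb1, Lmnb2, Ina, Nefl and Nefm, and the most Gfap. Without it 5 of the 10 genes lay entirely lower, Nes and Synm besides Nefl and the B-type lamins, against 36.5% of all entries.

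The order of abundance was Vim, then Gfap and Nes, then Lmnb1, then Lmnb2 and Lmna, then Ina, then Nefm, and last Synm and Nefl. In the controls the libraries of Gfap and Nes overlapped, as did those of Synm and Nefl; with the siRNA every library had Gfap above and Nefl below the libraries of the other gene of its pair. Vim made up 65.3%, 69.2% and 78.8% of the summed FPKM of the 7 cytoplasmic genes in circHIPK2 siRNA libraries 1 to 3, against 78.6%, 60.7% and 76.6% in control libraries 1 to 3. The 4 least abundant genes together made up 0.540% to 0.635% with the siRNA and 0.821% to 0.915% in the controls.

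The neuronal filaments were at low levels. Nefl, the neurofilament light chain around which the other neurofilament proteins assemble, had 0.337, 0.383 and 0.290 FPKM in circHIPK2 siRNA libraries 1 to 3, against 0.776, 0.539 and 0.692 FPKM in control libraries 1 to 3. Every siRNA library was below every control, and the means of 0.337 ± 0.0467 FPKM with the siRNA and 0.669 ± 0.120 FPKM in the controls gave a ratio of 0.503 (SD, n = 3 each; two-sided exact permutation p = 0.1, the smallest possible). These values rest on about 20 to 53 fragments per library at the lower of the depths above. With no filter the log2 difference was −0.32 (SE 0.07; adjusted p = 0.259 by limma).

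Ina, alpha-internexin of early neurons, had 3.23, 3.52 and 2.76 FPKM with the siRNA and 3.50, 3.25 and 3.40 FPKM in the controls, and Nefm, the medium chain, had 1.17, 1.56 and 0.706 FPKM with the siRNA and 1.35, 1.16 and 1.54 FPKM in the controls. Both overlapped between the groups, and siRNA library 3 was the lowest for each. The log2 differences were −0.07 for Ina (SE 0.11; adjusted p = 0.725 by limma) and −0.15 for Nefm (SE 0.16; adjusted p = 0.638, limma), and that of Ina turned to 0.031 with median-of-ratios scaling. Relative to Nefl, Nefm was higher in every siRNA library, at 3.48, 4.06 and 2.44, against 1.74, 2.16 and 2.22 in the controls (exact permutation p = 0.1), and Ina was higher too, at 9.44 ± 0.211 with the siRNA against 5.15 ± 0.793 in the controls (SD, n = 3 each). Of all tested entries 88.2% lay entirely higher relative to Nefl. In the annotation used, Nefl and Nefm overlap on opposite strands and Ina overlaps Nt5c2, at 6.13 FPKM, so their reads cannot be told apart without strand.

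The neuronal markers that passed the filter lay below 0 on the deposited FPKM, as did most of all entries. Of 11 tested, 0 were called in either direction (limma). At an unadjusted p below 0.05 (limma) 4 were lower and 0 higher, against 15.5% and 1.83% of all entries. All 11 lay below 0, against 77.1% of all entries. The median was −0.22, where that of all entries was −0.12. With quantile normalization 7 lay below 0. Dcx, at a mean of 0.878 FPKM with the siRNA and 1.19 FPKM in the controls, passed the filter only through the controls. The markers below the filter went both ways. Syt1 averaged 0.955 FPKM with the siRNA and 0.735 FPKM in the controls, and Neurod1 0.689 FPKM and 0.758 FPKM. Tubb3, a tubulin of young neurons, had 5.24, 6.40 and 4.90 FPKM with the siRNA and 8.57, 7.32 and 8.46 FPKM in the controls (adjusted p = 0.155 by limma), and Gap43, a growth cone protein, had 96.6 ± 9.54 FPKM with the siRNA and 107 ± 15.9 FPKM in the controls. The 18 markers summed to 278 to 304 FPKM with the siRNA and to 305 to 371 FPKM in the controls. Their part in the Nefl values was not tested.

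**Figure D4:**
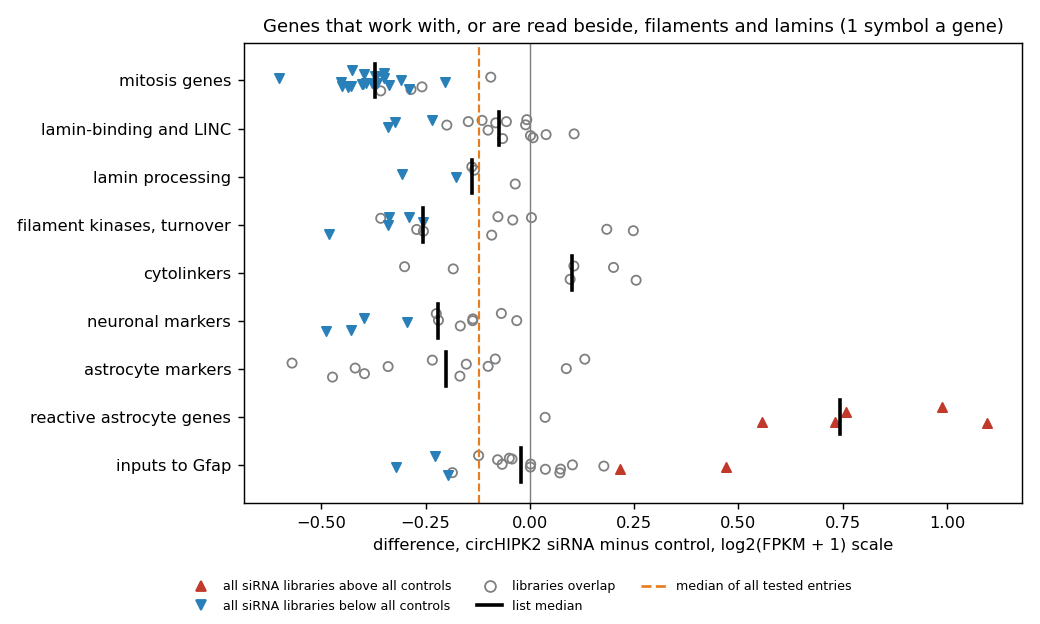
Difference between circHIPK2 siRNA and control on the log2(FPKM + 1) scale (horizontal axis) for tested genes of 9 lists (rows), 1 symbol a gene; triangles mark genes whose libraries do not overlap, the black bar is the list median and the dashed line the median of all tested entries at −0.12. Mitosis genes have a median of −0.37 with 20 of 24 entirely lower, and reactive astrocyte genes have 5 of 6 entirely higher; 0 genes of these lists were called.

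Other genes of the filament system gave no calls. Of 15 further filament genes only Bfsp2 and Krt10 passed the filter. Bfsp2, a beaded filament gene known from the lens, had 7.55 ± 2.09 FPKM with the siRNA and 8.17 ± 0.849 FPKM in the controls (SD, n = 3 each; adjusted p = 0.706 by limma). Nefh, the neurofilament heavy chain, stayed at or below 0.026 FPKM, and Des, desmin of muscle, at or below 0.226 FPKM in all 6 libraries. Of 6 tested cytolinkers, which tie filaments to other structures, 0 were called in either direction or passed an unadjusted p below 0.05 (limma), and the median was 0.10. Macf1 had 27.7 ± 1.70 FPKM with the siRNA and 25.6 ± 1.54 FPKM in the controls, and Dst had 10.0 ± 1.32 FPKM with the siRNA and 8.28 ± 1.46 FPKM in the controls. Of 14 kinases and turnover factors of filaments, 0 were called (limma; 3 lower and 0 higher at an unadjusted p below 0.05) and 5 lay entirely lower, against 22.1% of all entries, with a median of −0.26. With median-of-ratios scaling 3 lay entirely lower and 2 entirely higher, against 10.1% of all entries each way; with quantile normalization 1 lay each way, and with the ribosomal RNA locus entries removed 0 lay lower and 1 higher. Plk1, a mitotic kinase that acts on vimentin, had 38.9 ± 0.677 FPKM with the siRNA and 49.6 ± 4.52 FPKM in the controls (adjusted p = 0.191 by limma).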

How the data were processed

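The deposited table held FPKM values for 6 libraries, made by the authors. The tools named, per the submitters' processing notes, are HISAT, StringTie and edgeR, and the build is mm9; their versions, the annotation, and whether strand and molecular identifiers were used are not stated. Groups were compared with limma 3.58.1 (R 4.3.3) on log2(FPKM + 1), with a mean-variance trend, for entries averaging 1 FPKM or more, and p-values were adjusted (Benjamini-Hochberg) over all entries tested and called below 0.05. Folds of low genes are understated on this scale. Ratios of 2 genes were compared by exact permutation tests. Depth assumed that low FPKM values of genes with 1 transcript of at least 500 nt are whole multiples of 1 fragment; between 35.2% and 42.2% lay within 0.05 steps of one, against 10% by chance. Fragments of a gene use the length in GENCODE M21, and RefSeq promoters were at hand for 7 of the 10 genes. The limma comparison was tried on simulated data, and the depth estimate and the permutation tests were not. The 10 genes, all lists and the tests were chosen with earlier results of these data known. Named were the 10 genes and, of each list, up to 2 called members in each direction by adjusted p or, with none called, the most abundant and that with the smallest p; others are examples chosen after their values were seen. The main comparison did not pair libraries by replicate number, and whether the numbers pair them was not settled. Alternatives were other pseudocounts, filters, scalings and limma settings, the replicate block, and each library left out.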

Additional observations from a re-analysis of the deposited data

How the results depend on the processing

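Under 17 alternatives 0 of the 8 genes tested were called in either direction, nor were Synm and Nefl, fitted only with no filter; the lowest adjusted p was 0.0598, for Lmnb1 with library weights (limma). Lmnb1 and Lmnb2 were lower, and Gfap, Vim and Lmna higher, in all 17. The sign turned for Nes with median-of-ratios scaling (0.025), quantile normalization (0.080) and rescaling without the 9 ribosomal RNA locus entries (0.060). For Ina it turned in the same settings (0.031, 0.019 and 0.059). For Nefm it turned without circHIPK2 siRNA library 3 (0.0070, with a range of −0.28 to 0.0070 over libraries left out). The first 2 of these scalings bring the median of all entries near 0 by construction. The rescaling does not do so by construction, and with it the median was 0.03. In each of these 3 scalings 2 genes, Vim and Lmna, lay entirely higher, against 0 as deposited. The share of all entries was 10.1%, 9.8% and 12.5%, against 2.65% as deposited. With a library left out, 0 to 3 genes lay entirely higher and 3 to 5 entirely lower, as did 3.42% to 6.28% and 24.1% to 42.3% of all entries; the 5, without control library 2, stand beside 36.5%. Over all entries 16 rose and 19 fell. The rises were 7 with no filter, 3 with median-of-ratios scaling, 4 with quantile normalization, 8 with robust moderation and 55 with library weights; the falls were 8 at a mean of at least 5 FPKM, 11 and 12 with those scalings and 265 with library weights. With a library left out 2 to 15 rose and 6 to 23 fell, with the lowest counts without circHIPK2 siRNA library 3. The cause of these moves was not tested. Same-numbered libraries correlated at 0.046, 0.0152 and 0.133 in their deviations from the group means, and differently numbered ones at −0.166 to 0.117. With so few libraries in a group these values cannot decide whether the numbers pair them. With the replicate block 46 entries were called in place of 35, and 0 of the 8 filament and lamin genes. Gfap then had an adjusted p of 0.247 (unadjusted 0.0178, limma). Depth limits Nefl, Nefm and Synm most.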

Other observations

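The oligodendrocyte lineage and microglia were read beside the filament genes because both could be present in such cultures. Of 9 tested genes of the oligodendrocyte lineage 0 were called in either direction (limma; 2 lower at an unadjusted p below 0.05). Of the same 9, 8 lay below 0, against 77.1% of all entries. Cspg4, a proteoglycan of oligodendrocyte precursors, had 17.3 ± 3.21 FPKM with the siRNA and 23.6 ± 2.88 FPKM in the controls (SD, n = 3 each; adjusted p = 0.218 by limma). Of 11 microglial markers only Cd68, a lysosomal membrane protein gene, passed the filter, with 6.73, 6.23 and 5.49 FPKM with the siRNA and 3.27, 3.40 and 4.57 FPKM in the controls; the groups did not overlap, and the gene was not called (adjusted p = 0.135, limma). The 10 liver genes were chosen with an earlier result of these data known, so their direction is no new result. All 10 were called lower (limma), against 0.139% of all entries. Apart from Apoa2, at 1.81 to 1.96 FPKM with the siRNA, these genes passed the filter only through the controls, so 0.139% is not a like background. With no filter 5 were called, with median-of-ratios scaling 8 and with quantile normalization 9. The list summed to 2.10 to 2.21 FPKM with the siRNA and to 39.9 to 64.9 FPKM in the controls. Alb, serum albumin, had 0.0365, 0.0581 and 0.120 FPKM with the siRNA and 20.1, 15.8 and 21.6 FPKM in the controls (adjusted p = 4.683e-06, limma), and Serpina1b, a secreted protease inhibitor, had at most 0.0225 FPKM with the siRNA and 2.59 to 3.65 FPKM in the controls. All 9 transcripts of the ribosomal RNA locus group, chosen on an earlier result of these data, lay entirely higher, against 2.65% of all entries. Of these, 8 were called higher (limma), against 0.117% of all entries. With median-of-ratios scaling, robust moderation or no filter 0 were called. With quantile normalization 1 was called, as was 1 without circHIPK2 siRNA library 3 and 1 without control library 2. Gm23935 had 2737, 962 and 5555 FPKM with the siRNA and 104, 121 and 83.3 FPKM in the controls (adjusted p = 0.0135 by limma), and Lars2, a mitochondrial leucyl-tRNA synthetase gene, had 149 to 758 FPKM with the siRNA and 16.1 to 23.4 FPKM in the controls.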
